A study of Mus musculus with 22 samples.

Results

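Nodal is a secreted TGF-β family ligand that acts through Activin receptors, and 10 genes of its pathway are described here out of 39179 genes counted in each of 22 mouse RNA-seq samples. The genes were chosen by name and matched by Ensembl identifier: the ligand *Nodal*, its coreceptor *Tdgf1* (Cripto), the receptors *Acvr1b* and *Acvr2b*, the receptor-activated factors *Smad2* and *Smad3*, their DNA-binding partner *Foxh1*, and the inhibitors *Lefty1*, *Lefty2* and *Smad7*. All 10 were found. They were chosen with the *Phf8* KO to WT difference in embryonic stem cells (ESCs) in view, *Lefty1* being higher in KO in both replicate numbers, so their values in that comparison are a description and carry no test.

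Nodal signalling works as a loop. The ligand, bound with its coreceptor to type I and type II Activin receptors, leads to phosphorylation of SMAD2 and SMAD3, which enter the nucleus with SMAD4 and bind DNA beside FOXH1. Among the targets are *Nodal* itself and the *Lefty* genes, whose proteins block the ligand and its coreceptor, while SMAD7 acts on the receptors from inside the cell. In the early mouse embryo the pathway patterns the epiblast and directs mesoderm and endoderm, and mouse ESCs, which resemble the early epiblast, express many of its parts. PHF8 removes methyl groups from histones, and its gene lies on the X chromosome.

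RNA came from WT and *Phf8* KO samples on a B6x129SvJ strain background: ESCs (2 WT and 2 KO), neural progenitor cells (NPCs, 3 and 3) derived from E16.5 embryos and kept in monolayer, and ventral striatum (STR) and prefrontal cortex (PFC) of 2-month-old animals (3 and 3 each). In the KO allele, 2 exons coding for part of the catalytic domain were floxed and then removed by transient Cre in V6.5 ESCs that had been cloned, and per the labels ESCs came from blastocyst outgrowths grown on gelatin or feeder cells. Every group carries the same strain background, and no treatment was given in the labels. The labels do not say whether samples with different numbers came from separate cultures, lines or animals, so p-values measure only the spread between these samples.

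Reads counted on genes numbered 11455757 to 13657534 per ESC sample, 11798544 to 15539811 per NPC sample, 7159094 to 8594441 per STR sample and 5898286 to 10148073 per PFC sample. Levels are given as CPM, read counts scaled to a common library size by TMM over all 22 samples, and between genes as RPKM, which also divides by exon length. *Phf8* was 70.3 and 62.7 CPM in the WT ESCs and 16.2 and 22.2 CPM in the KO ESCs, and every KO sample was below every WT sample within each of the 4 tissues or cell types. Its fitted log2 fold change was -1.79 (SE 0.22) in ESCs, -1.41 (SE 0.09) in NPCs, -1.37 (SE 0.15) in STR and -1.37 (SE 0.13) in PFC. Whole-gene counts include exons outside the deletion, so residual reads are no measure of protein. Summed over 10 pluripotency genes the level was 4870.0 to 5980.5 CPM in ESCs and at most 773.5 CPM elsewhere, in an NPC sample. The NPC sums were mostly *Sox2* (mean 684.3 CPM in WT and 718.4 CPM in KO). Over 8 progenitor genes the sum was 3928 to 5541 CPM in NPCs and at most 259.9 CPM elsewhere. The 5 neuronal genes summed to 1366 to 2129 CPM in the brain samples and 12.9 to 32.3 CPM in NPCs. In ESCs they summed to 450.1 to 506.9 CPM, most of it *Stmn2* (mean 443.8 CPM in WT and 398.4 CPM in KO). Some libraries stood apart. Both ESC samples numbered 2 were high in fibroblast transcripts, whose source was not tested. Over 10 such genes they summed to 7569.8 and 8990.3 CPM, against 1471 and 1669.5 CPM in the samples numbered 1. In the samples numbered 1 most of the sum was *Fn1* (1274.9 CPM in WT and 1484.4 CPM in KO). That gene was also high in WT NPCs (mean 768.4 CPM). Both NPC samples numbered 2 were low in 5 oligodendrocyte genes, at 219.1 and 411.2 CPM against 1882 to 3130.0 CPM in the other 4. KO STR replicate 1 had 126.1 CPM over 6 hypothalamic genes, and the other KO STR samples had 5.95 and 16.7 CPM. WT STR samples had 1.32 to 3.41 CPM, so every KO STR sample was above every WT STR sample in this sum. KO STR replicate 1 also had 64.2 CPM over 5 cortical genes, against 325.1 to 501.1 CPM in the other 5 STR samples. In PFC the 5 oligodendrocyte genes summed to 1296 to 1724 CPM in WT and to 1098 to 1168 CPM in KO, with no overlap. In bulk samples, fewer cells of a type and less RNA per cell cannot be told apart.

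*Lefty1* (chr1:180935022-180938400, plus strand, GRCm38) and *Lefty2* (chr1:180893108-180899103, plus strand) are near copies on the same chromosome. Their coding sequences, 1107 bases each in GENCODE M21, were identical at 91.9% of aligned bases. The counting used for these tables left out reads with more than 1 alignment. Of the distinct 50-base stretches of the annotated *Lefty1* transcripts, 306 of 1707 (17.9%) also occurred in *Lefty2*, and for *Lefty2* 307 of 2560 (12.0%) occurred in another gene. Counts of either copy therefore rest on the bases that differ. *Tdgf1* shared 236 of 2665 stretches (8.86%) with the pseudogene *Tdgf1-ps1*, and the other 7 genes shared none. No exon base of the 10 genes overlapped another counted gene.

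The promoter windows of *Nodal* and *Tdgf1*, the ligand and its coreceptor, are printed because these genes had the greatest ratio of WT ESC to WT NPC levels among the 10. Each runs from 250 bases before to 50 bases after the RefSeq start (GRCm38.p6), 5′ to 3′ on the gene's strand. Capitals mark matches on either strand to a SMAD box (CAGAC) or a FOXH1 motif (AATNNACA):
Nodal promoter, chr10:61417722-61418021, plus strand: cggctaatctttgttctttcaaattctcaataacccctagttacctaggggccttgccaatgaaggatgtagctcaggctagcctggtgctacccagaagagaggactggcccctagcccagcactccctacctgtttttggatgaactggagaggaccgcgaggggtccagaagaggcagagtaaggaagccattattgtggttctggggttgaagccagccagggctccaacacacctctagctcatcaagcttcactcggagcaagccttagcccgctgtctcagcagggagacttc
Tdgf1 promoter, chr9:110946109-110946408, minus strand: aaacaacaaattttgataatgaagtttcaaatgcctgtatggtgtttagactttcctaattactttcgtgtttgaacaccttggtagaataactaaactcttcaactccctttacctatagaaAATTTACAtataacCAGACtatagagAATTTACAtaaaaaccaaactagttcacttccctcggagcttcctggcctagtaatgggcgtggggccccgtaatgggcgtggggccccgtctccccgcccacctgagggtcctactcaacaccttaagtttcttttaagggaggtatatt
The *Tdgf1* window held 2 FOXH1 motifs with 1 SMAD box between them, the 3 matches not overlapping, and the *Nodal* window held neither. Of 32851 promoter windows of this length, 49.6% held a SMAD box and 12.2% a FOXH1 motif, so a match is common and is no binding site by itself. *Smad3* and *Acvr1b* held neither and *Acvr2b* held 1 SMAD box. In base composition the *Tdgf1* window was 41.7% G or C and the *Nodal* window 54.0%, against a median of 52.7% over all windows and 67.7% to 79.7% for *Smad3*, *Acvr2b* and *Acvr1b*. No window was matched for *Lefty1*, *Lefty2*, *Foxh1*, *Smad2* or *Smad7*.

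In WT ESCs the pathway was present from ligand to inhibitors, and the coreceptor stood far above the rest. Per exon length *Tdgf1* reached 437.6 ± 79.1 RPKM (SD, n = 2), and the next in order were *Lefty1* at 49.7 ± 4.06, *Nodal* at 43.8 ± 1.35 and *Lefty2* at 36.2 ± 10.7 RPKM. *Foxh1* followed at 28.7 ± 1.52 and *Smad7* at 26.5 ± 9.41 RPKM. The receptors and receptor-activated SMADs were lower, with *Acvr1b* at 15.8 ± 0.772, *Smad2* at 9.11 ± 0.796, *Smad3* at 5.49 ± 1.82 and *Acvr2b* at 3.77 ± 0.208 RPKM. In that order the neighbours *Nodal* and *Lefty2*, *Lefty2* and *Foxh1*, *Foxh1* and *Smad7*, and *Smad3* and *Acvr2b* were within 1 SD of the more variable gene.

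The ligand and its coreceptor gave KO to WT ratios near 1 in ESCs. *Nodal* (ENSMUSG00000037171) was 93.7 and 89.7 CPM in WT and 93.4 and 91.8 CPM in KO replicates 1 and 2, so the groups overlapped. Within a replicate number the KO to WT ratio was 0.996 (95% counting interval 0.912 to 1.09) and 1.02 (0.935 to 1.12). *Tdgf1* (ENSMUSG00000032494) was 1294 and 1001 CPM in WT and 1369 and 992.5 CPM in KO, again overlapping. It was lower in both samples numbered 2, at 0.773 (0.754 to 0.793) of replicate 1 in WT and 0.725 (0.707 to 0.744) in KO, a larger gap than that between genotypes. These intervals are exact binomial ones and cover counting error only, and PCR reads are not independent molecules.

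Both *Lefty* genes were higher in KO ESCs within both replicate numbers, each with the larger ratio in replicate 1. *Lefty1* (ENSMUSG00000038793) was 82.3 and 92.4 CPM in WT and 139.9 and 123.4 CPM in KO, from 819, 1079, 1582 and 1253 reads in that order. Its KO to WT ratio was 1.70 (1.56 to 1.85) within replicate 1 and 1.34 (1.23 to 1.45) within replicate 2, and both KO samples lay above both WT samples. *Lefty2* (ENSMUSG00000066652) was 74.9 and 114.2 CPM in WT and 115.5 and 124.7 CPM in KO. Here the ratio was 1.54 (1.41 to 1.69) within replicate 1 and 1.09 (1.01 to 1.18) within replicate 2, and the lower KO sample was only just above the higher WT sample. The 2 WT samples of *Lefty2* differed by 1.53 (1.39 to 1.67), as much as the genotypes did in replicate 1. The fitted log2 fold change over both numbers was 0.58 for *Lefty1* and 0.34 for *Lefty2*. Leaving out 1 sample in turn gave 0.48 to 0.69 for *Lefty1* and 0.04 to 0.70 for *Lefty2*, the lowest without WT replicate 1 and the highest without WT replicate 2.

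Among the other genes with lower or higher levels in KO ESCs the shifts were smaller than that of *Lefty1* in both replicate numbers. They were smaller than that of *Lefty2* in replicate 1, but in replicate 2 *Lefty2* had a ratio of 1.09, like that of *Foxh1*. *Foxh1* (ENSMUSG00000033837) was 40.7 and 37.8 CPM in WT and 53.5 and 41.4 CPM in KO, a ratio of 1.32 (1.16 to 1.5) within replicate 1 and 1.10 (0.956 to 1.25) within replicate 2. *Smad2* (ENSMUSG00000024563) was 84.9 and 75 CPM in WT and 73.3 and 69.7 CPM in KO, with ratios of 0.864 (0.784 to 0.952) and 0.930 (0.841 to 1.03). *Acvr1b* (ENSMUSG00000000532), the type I receptor ALK4, was 72.0 and 67.2 CPM in WT and 66.6 and 62.1 CPM in KO. Its ratios were 0.925 and 0.923, each with an interval that holds 1. *Acvr2b* (ENSMUSG00000061393), a type II receptor, was 15.4 and 14.2 CPM in WT and 17.5 and 13.8 CPM in KO and overlapped between genotypes.

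**Figure D1:**
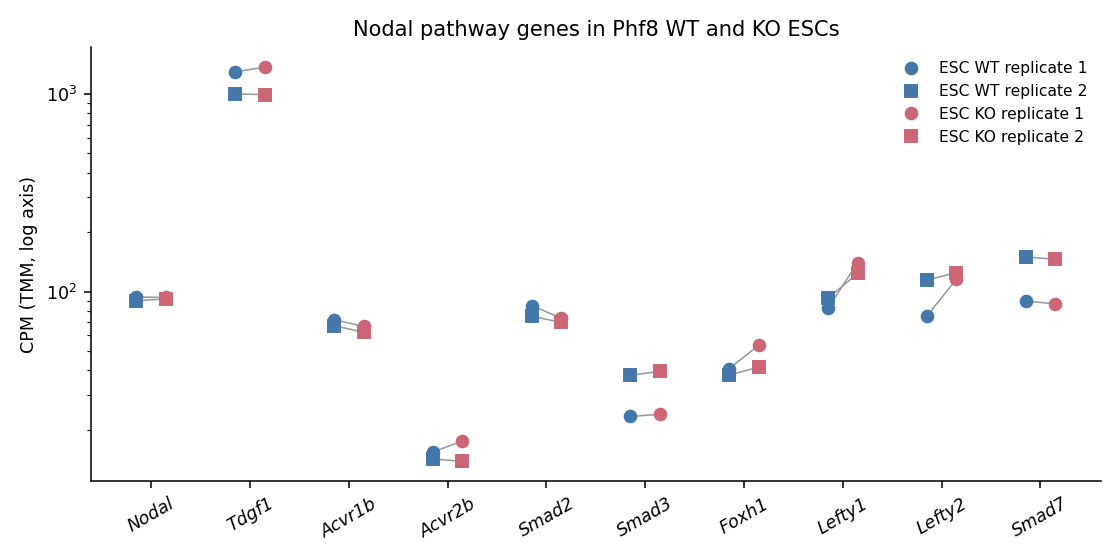
Level of each of the 10 genes in the 4 ESC samples (CPM after TMM scaling, log axis), with circles for replicate 1, squares for replicate 2, blue for WT and red for KO, and grey lines joining samples of the same number. Both lines rise for *Lefty1* and *Lefty2*, those of *Nodal* are flat, and for *Smad3* and *Smad7* the replicate number separates the points more than genotype does.

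Counted over the 10 genes, 3 had both KO ESC samples above both WT samples (*Lefty1*, *Lefty2* and *Foxh1*) and 2 had both below (*Smad2* and *Acvr1b*). Over the 15080 genes kept by the count filter of edgeR in ESCs, 11.5% had both KO samples above and 9.8% both below. With a ratio above 1.25 asked for in both replicate numbers, only *Lefty1* remained, where 4.05% of all genes did so, and none of the 10 was below the inverse in both numbers, against 1.51% of all genes. *Lefty1* passed this line with its lower ratio at 1.34, and *Foxh1* and *Lefty2* fell short with lower ratios of 1.10 and 1.09. The median fitted log2 fold change was 0.05 over the 10 genes and 0.01 over all genes. These shares stand beside genes that were chosen from this comparison, so nothing is read from them. In the same ESC comparison, fitted without a replicate block, 0 of the 15080 genes (0%) passed an FDR of 0.05 in edgeR's quasi-likelihood test, *Phf8* included. There 171 had an unadjusted p under 0.05, and DESeq2 called 3. Same-numbered ESC samples deviated together (r of 0.876), and with the number as a block more genes passed, as given in the closing section.

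**Figure D2:**
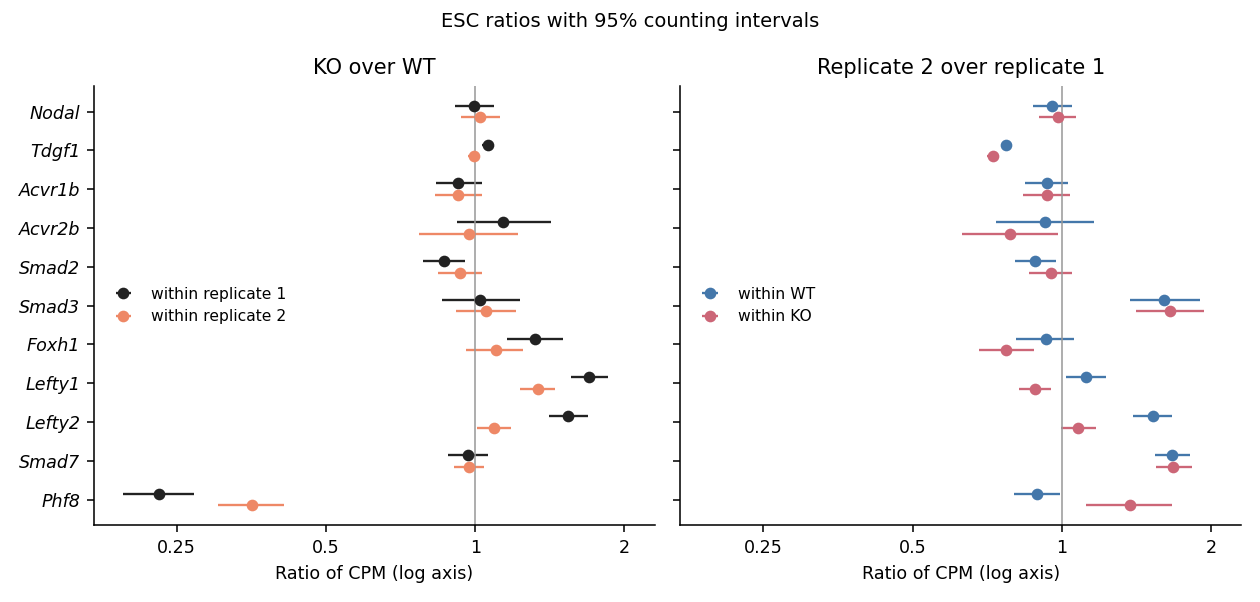
Ratios of CPM in ESCs with 95% counting intervals (log axis) for the 10 genes and *Phf8*, KO over WT within each replicate number on the left and replicate 2 over replicate 1 within each genotype on the right. On the left *Lefty1* is at 1.70 and 1.34 and *Phf8* at 0.230 and 0.354, and on the right *Smad7* and *Smad3* lie between 1.61 and 1.68 in both genotypes.

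*Smad7* and *Smad3* followed the replicate number instead of genotype. *Smad7* (ENSMUSG00000025880), the inhibitory SMAD, was 89.6 and 149.8 CPM in WT and 86.5 and 145.6 CPM in KO. Its ratio of replicate 2 to 1 was 1.67 (1.54 to 1.81) in WT and 1.68 (1.55 to 1.83) in KO, while KO to WT was 0.965 and 0.972. *Smad3* (ENSMUSG00000032402) was 23.3 and 37.6 CPM in WT and 23.9 and 39.5 CPM in KO, 1.61 and 1.65 times higher in replicate 2. The samples with more *Smad7* and *Smad3* were those with more of the fibroblast transcripts. All 10 fibroblast genes were higher in both samples numbered 2, where 25.5% of all genes were, and the collagen gene *Col1a1* was 81.3 and 1628 CPM in WT and 78.6 and 1999 CPM in KO. None of the 10 was at 0 reads in a sample numbered 2, and 1 of them was in each sample numbered 1. Other Activin-related genes were higher in the same samples. *Inhba*, the Activin A subunit, was 5.63 and 64.9 CPM in the WT samples and 5.40 and 71.3 CPM in the KO samples, and the Activin-binding protein *Fst* was 6.23 and 44.0 CPM in WT and 4.69 and 52.7 CPM in KO. The part of the fibroblast transcripts in these levels was not tested. *Lefty1* did not follow that split, being 1.12 times higher in replicate 2 in WT and 0.882 times in KO.

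**Figure D3:**
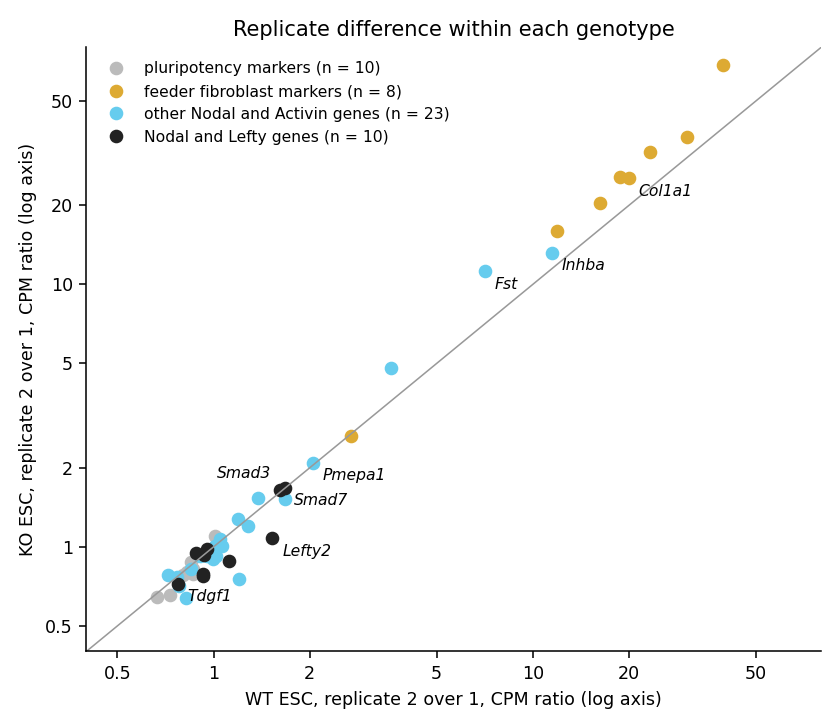
Ratio of CPM in ESC replicate 2 over replicate 1 in WT (horizontal) and KO (vertical), both axes log, 1 point per gene, with the diagonal marking equal ratios. The 8 fibroblast genes with reads in all 4 samples lie between 2.64 and 68.4, *Inhba*, *Fst*, *Fstl3* and *Pmepa1* are above 2, *Smad3* and *Smad7* overlap near 1.65, and most other Nodal genes and the pluripotency genes lie near or below 1.

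Pluripotency and primed epiblast genes gave the state of the ESCs in which *Lefty1* differed. Of 10 pluripotency genes, 0 had both KO samples above both WT samples and 1 (*Zfp42*) had both below, where 11.5% and 9.8% of all genes did, from 318.1 and 311.7 CPM to 298.1 and 283.5 CPM. Of 5 primed epiblast genes, 3 had both KO samples above, among them the DNA methyltransferase *Dnmt3b* (355.3 and 362.0 CPM in WT, 451.2 and 381.8 CPM in KO), and none had both below, beside the same shares of all genes. Also above were *Pou3f1* (23.1 and 19.2 CPM in WT, 30.5 and 25.8 CPM in KO) and *Fgf5*, at 10 to 17 reads per ESC sample. *Otx2* and *Sox3* overlapped between genotypes. The 5 together summed to 419.9 and 443.7 CPM in WT and to 530.8 and 469.2 CPM in KO, most of it *Dnmt3b*. The part of the pluripotency and primed epiblast genes in the *Lefty1* level was not tested.

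The other genes of the Nodal and Activin pathway, 26 of which were in the tables, gave no call in KO ESCs in the fit without a replicate block. None of the 23 that passed the filter had an FDR under 0.05 in edgeR, 0 had an unadjusted p under 0.05, and their median log2 fold change was 0.09. The pair with the greatest fitted change was *Fstl3*, an Activin-binding protein, at 0.67 (SE 1.07) and *Inhbb*, an Activin B subunit, at -0.46 (SE 0.20). *Inhbb* was 68.3 and 81.1 CPM in WT and 47.6 and 61.0 CPM in KO, a ratio of 0.697 (0.621 to 0.781) and 0.752 (0.678 to 0.833), and both KO samples lay below. *Fstl3* was low, at 0.904 and 3.25 CPM in WT and 1.15 and 5.52 CPM in KO, with the higher values in replicate 2. The 4 mesendoderm genes that passed the filter, of 11, had a median of -0.41, and none passed the test. *Eomes*, a T-box factor of mesendoderm, was 12.1 and 13.6 CPM in WT and 9.20 and 9.95 CPM in KO (log2 fold change -0.43, SE 0.19), and *Gata4* was 5.12 and 1.80 CPM in WT and 2.21 and 1.87 CPM in KO (-0.75, SE 0.58). Of 15 BMP pathway genes none passed either, with a median of -0.03. *Bmp4* was 23.6 and 31.1 CPM in WT and 14.5 and 22.3 CPM in KO (-0.57, SE 0.31), and *Id3*, a BMP target, was 13.3 and 64.7 CPM in WT and 15.7 and 79.2 CPM in KO (0.29, SE 1.24).

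Of the 4 genes on the outer sides of the *Lefty* pair on chromosome 1, none had a KO to WT ratio above 1.25 in both replicate numbers in ESCs. *H3f3a* and *Sde2*, beyond *Lefty2*, had ratios of 0.990 and 0.884 and of 0.967 and 0.926. *Tmem63a*, next to *Lefty1*, had 1.18 and 0.937, and *Ephx1* had 1.27 and 1.13. *Ephx1* was higher in the samples numbered 2, at 45.0 against 9.65 CPM in WT and 50.7 against 12.2 CPM in KO.

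Outside ESCs 5 of the 10 genes (*Nodal*, *Tdgf1*, *Foxh1*, *Lefty1* and *Lefty2*) had few reads. Levels are of all 10 genes in the WT samples of each tissue or cell type, and TMM scaling raised the log2 CPM of ESCs and NPCs by 0.13 to 0.27 and lowered that of the brain samples by 0.11 to 0.25 against plain library size. In WT samples 8 of the 10 genes had their highest mean in ESCs, under TMM and under plain library size, the exceptions being *Smad3* and *Acvr1b*. For these 8, no WT sample outside ESCs reached the lower WT ESC sample. No share of all genes stands beside these counts, so nothing particular to the 10 is read from them.

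*Nodal* had 2, 1 and 0 reads in the WT NPCs, 5, 8 and 6 in WT STR and 11, 19 and 2 in WT PFC. WT ESCs had 1115 (381.1 to 5414) times its CPM in NPCs, 129.8 (82.9 to 216.0) times that in STR and 76.9 (54.3 to 112.7) times that in PFC. *Tdgf1* had 4 to 6 reads per WT NPC sample, 3 to 10 in STR and 2 to 7 in PFC, and its ratio of ESC to tissue was lowest for STR, at 1609 (1030.2 to 2673). *Foxh1* had 0 to 4 reads in every sample outside ESCs, both genotypes included. The ligand, its coreceptor and the nuclear partner thus had at most 19 reads in any WT sample outside ESCs.

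*Lefty1* was nearly absent from NPCs, with 3, 1 and 2 reads in WT and 2, 0 and 0 in KO, but stood above that floor in the brain. It had 6, 22 and 14 reads in WT STR and 10, 29 and 11 in WT PFC, which was 0.602 to 2.55 CPM and 1.11 to 2.54 CPM. Every WT brain sample was above every WT NPC sample, and STR and PFC overlapped. WT ESCs had 534.4 (245.0 to 1458) times the NPC level and 47.1 (35.6 to 63.7) times the PFC level. *Lefty2* was lower in the brain, with 3, 4 and 5 reads in WT STR and 1, 4 and 0 in WT PFC, and STR, NPC and PFC were not separated.

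*Smad7* kept a measurable level everywhere, at 33.2 to 41.6 CPM in WT STR, 36.5 to 42.0 CPM in WT PFC and 6.12 to 11.3 CPM in WT NPCs. *Acvr2b* was at a few CPM outside ESCs, at 3.8 to 4.84 in WT NPCs, 2.79 to 4.08 in WT STR and 1.56 to 4.38 in WT PFC, without separation between these. *Smad2* ran from 36.7 CPM in a WT STR sample to 84.9 CPM in a WT ESC sample. For *Smad7*, *Smad2* and *Acvr2b* the order of the lower tissues changed under plain library size.

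*Smad3* and *Acvr1b* were higher in the brain than in ESCs. *Smad3* was highest in WT PFC at 117.9 to 143.8 CPM and in STR at 107.8 to 126.9 CPM, which overlapped. The NPC range of 56.3 to 116.8 CPM overlapped that of STR, and ESCs were below all of these. *Acvr1b* ranged from 174.5 to 186.2 CPM in WT PFC and 149.9 to 156.5 CPM in WT STR down to 67.2 and 72.0 CPM in ESCs and 45.9 to 59.7 CPM in NPCs, with no overlap between any neighbours in that order. The receptor and the SMAD remained in tissues where the ligand was near 0 reads.

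**Figure D4:**
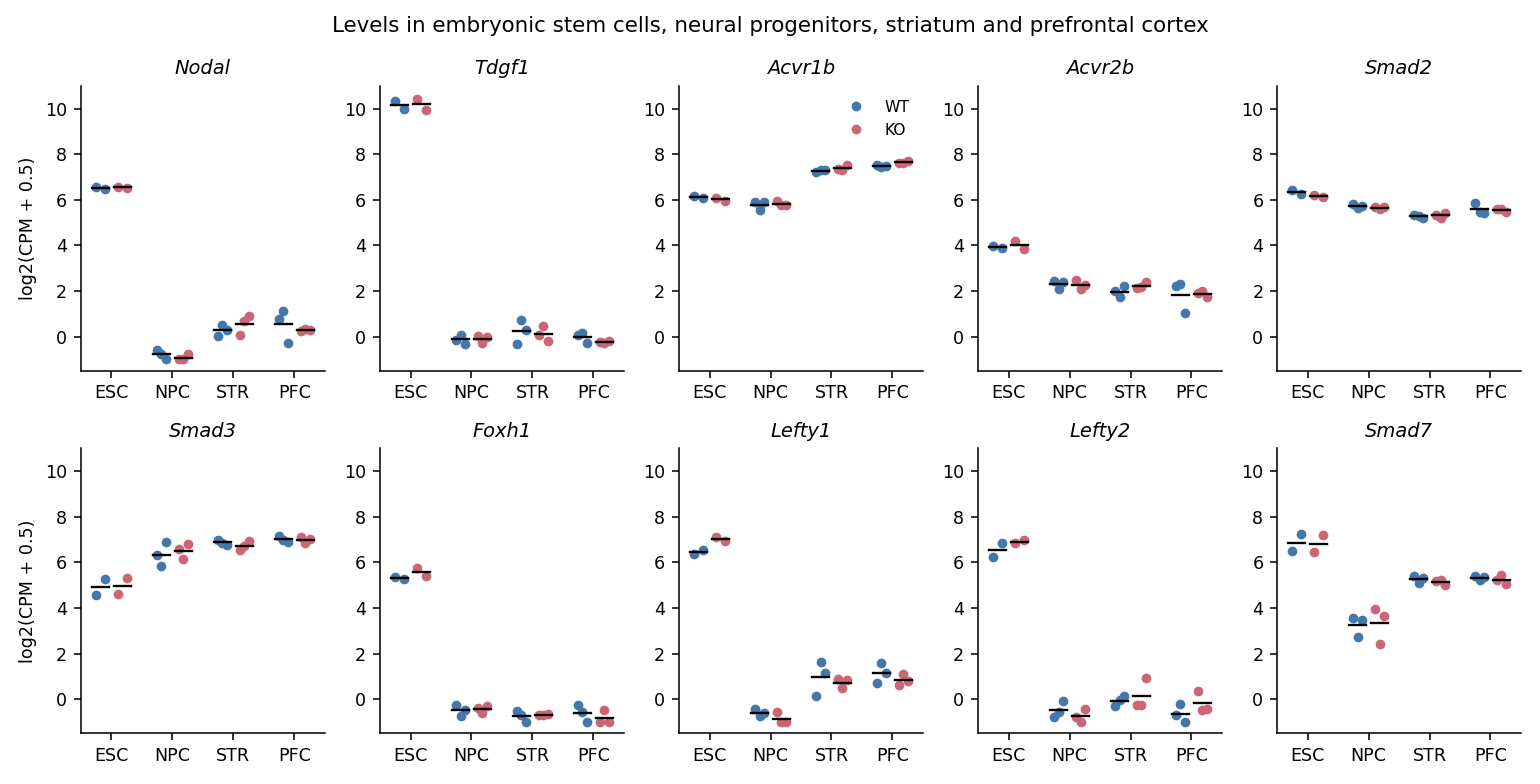
Levels of the 10 genes in all 22 samples as log2(CPM + 0.5), 1 panel per gene, with WT in blue and KO in red, points for samples and black bars for group means. A sample with 0 reads sits at -1. *Nodal*, *Tdgf1*, *Foxh1* and the *Lefty* genes are far lower in NPCs and brain than in ESCs, with *Lefty1* and *Nodal* higher in WT brain than in WT NPCs, whereas *Smad3* and *Acvr1b* are highest in brain.

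WT NPCs and WT ESCs were compared across all genes by edgeR's quasi-likelihood test, in which 71.2% of 15938 genes passed an FDR of 0.05 and 36.6% were lower in NPCs. With such a share, passing is not particular to these genes. *Nodal*, *Tdgf1*, *Foxh1*, *Lefty1* and *Lefty2* entered that test through ESC reads alone, so they had to differ, and their read counts above are the description. Of the 5 with reads in both cell types, *Smad7* fell by 3.60 on the log2 scale (SE 0.35, FDR 0.000625), *Acvr2b* by 1.64 (SE 0.21, FDR 0.00121) and *Smad2* by 0.52 (SE 0.10, FDR 0.0067). *Smad3* was higher in NPCs by 1.54 (SE 0.39, FDR 0.0166), but not past the threshold without WT ESC replicate 1, the sample with the lower fibroblast sum (1.23, FDR 0.0762). *Acvr1b* differed by -0.26 (SE 0.14, FDR 0.133) and did not pass. Of 23 other Nodal and Activin genes, 16 passed, 12 lower and 4 higher in NPCs. Among the 12 were *Gdf3*, a Nodal-related ligand (-10.86 as fitted), the corepressor *Skil* (-1.88), *Pcsk6*, a convertase that cleaves Nodal precursor (-1.88), the repressor *Tgif1* (-2.88) and *Bambi*, a decoy receptor (-1.91), and the higher ones included the type II receptor *Acvr2a* at 1.51 (SE 0.10, FDR 0.000174). *Gdf3*, *Inhba* and *Fstl3*, all among the 12, had at most 5 reads per WT NPC sample and entered through ESC reads, so their direction was fixed by the filter. In the mesendoderm list the same holds for *Eomes* (0, 2 and 0 reads in WT NPCs) and *Gata6* (0 reads in all), and the chemokine receptor *Cxcr4* was higher in NPCs by 4.28 (SE 0.33, FDR 0.000264). In the BMP list 8 of 15 were higher in NPCs, *Bmp7* (3.95), *Bmpr2* (2.10), *Id2* (2.01), *Smad5* (2.03) and *Smad1* (1.49) among them, and 2 were lower, *Smad6* (-4.37) and the BMP antagonist *Grem1* (-8.85). *Grem1* had at most 2 reads per WT NPC sample, so its direction too was fixed by the filter. It was 9.14 and 106.3 CPM in the 2 WT ESC samples, the higher in the sample with the higher fibroblast sum.

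No member passed the test between the brain regions in WT in the fit without a replicate block. In the comparison of WT PFC with WT STR 24.4% of 15555 genes passed an FDR of 0.05 in edgeR, and 0 of the 6 members tested did, with 2 at an unadjusted p under 0.05 and 0 of 10 in DESeq2. *Acvr1b* was higher in PFC by 0.19 (SE 0.07, FDR 0.0766) and *Smad2* by 0.29 (SE 0.12, FDR 0.114). The regions did not overlap for *Acvr1b*, a separation given without a share of all genes. Leaving out WT PFC replicate 3 gave *Smad2* 0.36 with an FDR of 0.0486. In the Nodal and Activin list 6 of 21 genes passed, beside the 24.4% of all genes. Neither this count nor that of the members is read as particular to its list. Higher in PFC were *Inhbb* at 1.40 (SE 0.18, FDR 0.000218), with 6.62, 4.87 and 5.04 CPM in STR and 16.1, 13.2 and 15.5 CPM in PFC, and *Pcsk6* at 0.47 (SE 0.12, FDR 0.0153). Lower were *Acvr2a* at -0.57 (SE 0.08, FDR 0.000623), the ubiquitin ligase *Smurf2* at -0.49 (SE 0.11, FDR 0.00664), the common mediator *Smad4* at -0.33 (SE 0.09, FDR 0.0253) and *Pmepa1* at -0.33 (SE 0.11, FDR 0.0487). The count fell to 3 without WT STR replicate 1 or without WT PFC replicate 2. Of 15 BMP genes 5 passed, beside the same share of all genes. *Chrd*, a BMP antagonist (1.23), and *Id2* (0.49) were higher in PFC, and *Grem1* (-1.17), *Smad5* (-0.49) and *Bmp7* (-0.39) were lower. Neither mesendoderm gene tested (*Cxcr4*, -0.97, and *Sox17*, 0.25) passed.

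In NPCs no member passed the test between *Phf8* genotypes. The 5 that passed the filter gave 0 calls at an FDR of 0.05 in edgeR, 0 at an unadjusted p under 0.05 and 0 in DESeq2, where 0.00697% of 14351 genes, *Phf8* alone, passed. With the replicate number as a block 3 genes passed and again no member. *Smad7* was 11.3, 6.12 and 10.6 CPM in WT and 15.0, 4.92 and 12.1 CPM in KO (log2 fold change 0.20, SE 0.43), both samples numbered 2 being low. These are the samples with few oligodendrocyte transcripts, *Mbp* being 9.83 and 49.7 CPM there and 599.4 to 1021 CPM in the other 4, and their part in the *Smad7* level was not tested. *Smad3* was 80.1, 56.3 and 116.8 CPM in WT and 95.2, 70.2 and 112.1 CPM in KO (0.14, SE 0.29). The receptors and *Smad2* had log2 fold changes between -0.07 and 0.05. Without replicate 2 of both genotypes *Smad7* was at 0.32, *Smad3* at 0.08, *Smad2* at -0.08, *Acvr2b* at -0.01 and *Acvr1b* at -0.03, with no member past the threshold. All 10 overlapped between genotypes, where 8.17% of tested genes did not, and for the 5 with at most 6 reads per NPC sample a difference was not detectable at this depth. Of the other lists, 0 of 19 Nodal and Activin genes, 0 of 13 BMP genes and 0 of 1 mesendoderm gene passed, 0 at an unadjusted p under 0.05, with *Fst* at -0.74 (SE 0.55), *Smurf1* at -0.19 (SE 0.08), *Nog*, a BMP antagonist, at 0.69 (SE 0.78), *Bmp4* at 0.59 (SE 1.38) and *Cxcr4* at -0.12 (SE 0.16).

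In STR none of the 6 members tested passed in edgeR (0 of 15476 genes, 0%), none had an unadjusted p under 0.05, and none passed in DESeq2, which called 60 genes. *Lefty1* had 6, 22 and 14 reads in WT and 12, 8 and 10 in KO, that is 0.602, 2.55 and 1.68 CPM against 1.33, 0.884 and 1.27 CPM (-0.44, SE 0.50), with the KO samples inside the WT range. *Acvr1b* was 149.9, 156.5 and 156.2 CPM in WT and 164.0, 156.5 and 182.3 CPM in KO (0.13, SE 0.08). *Acvr2b* gave 0.28 (SE 0.24), *Smad7* -0.14 (SE 0.11), *Smad3* -0.13 (SE 0.10) and *Smad2* 0.06 (SE 0.09). Without KO replicate 1, which stood apart in hypothalamic and cortical genes, the estimates were -0.56 for *Lefty1*, 0.14 for *Acvr1b*, 0.32 for *Acvr2b*, -0.17 for *Smad7*, -0.05 for *Smad3* and 0.05 for *Smad2*, again with no call. The KO samples kept there were also above all WT samples in the hypothalamic sum, and its part in these values was not tested. KO and WT overlapped for all 10 genes, while 13.2% of tested genes did not overlap. *Nodal* had 5, 8 and 6 reads in WT and 5, 10 and 11 in KO, *Lefty2* 3, 4 and 5 against 3, 3 and 11, and *Tdgf1* 3, 10 and 6 against 5, 8 and 3, too few for the filter. In the other lists 0 of 22 Nodal and Activin genes, 0 of 15 BMP genes and 0 of 2 mesendoderm genes passed, with 2, 3 and 0 at an unadjusted p under 0.05. The greatest estimates of each list were *Tgif2* at 0.67 (SE 0.38), *Inhba* at -0.55 (SE 0.25), *Grem1* at 0.76 (SE 0.28), *Bmpr2* at 0.62 (SE 0.31), *Cxcr4* at -0.49 (SE 0.49) and *Sox17* at 0.04 (SE 0.22).

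**Figure D5:**
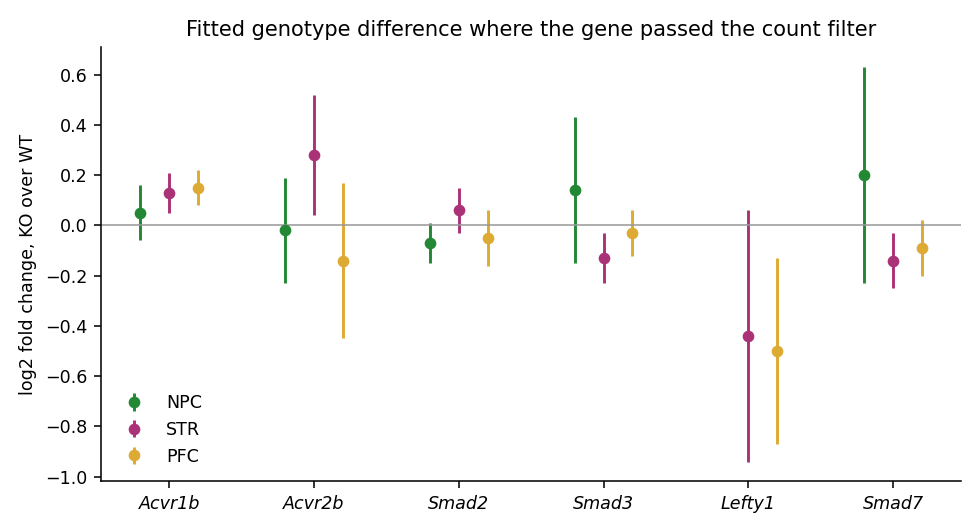
Fitted log2 fold change of KO over WT with its standard error in NPCs, STR and PFC (3 WT and 3 KO each), for each member that passed the count filter there (*Lefty1* did not in NPCs). Estimates for *Acvr1b*, *Smad2* and *Smad3* lie within 0.15 of 0, and the widest bars belong to *Lefty1* and to *Smad7* in NPCs.

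In PFC 98 of 15364 genes (0.638%) passed between genotypes in edgeR, and no member was among them. The 98 became 2 without KO replicate 2 or KO replicate 3 and 1 with all 22 samples in one fit. Of the 6 tested, 0 passed an FDR of 0.05, 1 had an unadjusted p under 0.05, and 0 of 10 passed in DESeq2. That 1 was *Acvr1b*, at 186.2, 174.5 and 177.7 CPM in WT and 197.4, 197.1 and 208.2 CPM in KO (log2 fold change 0.15, SE 0.07, FDR 0.437). It was the only one of the 10 with every KO sample above every WT sample, a separation that 17.1% of tested genes showed in one direction or the other. *Lefty1* had 10, 29 and 11 reads in WT and 9, 15 and 10 in KO, or 1.11, 2.54 and 1.72 CPM against 1.02, 1.65 and 1.22 CPM (-0.50, SE 0.37, FDR 0.704), again overlapping. *Smad7* was -0.09 (SE 0.11), *Acvr2b* -0.14 (SE 0.31), *Smad2* -0.05 (SE 0.11) and *Smad3* -0.03 (SE 0.09). *Nodal* had 11, 19 and 2 reads in WT and 6, 7 and 6 in KO. Among 21 other Nodal and Activin genes, 15 BMP genes and 2 mesendoderm genes, 0 passed, and 2, 3 and 0 had an unadjusted p under 0.05. *Tgif1* was at -0.62 (SE 0.30), *Inhba* at -0.52 (SE 0.42), *Smad6*, the BMP-linked inhibitory SMAD, at -0.75 (SE 0.23), *Bmp2* at 0.71 (SE 0.20), *Cxcr4* at 0.46 (SE 0.40) and *Sox17* at -0.14 (SE 0.15). Of the 5 oligodendrocyte genes, 4 were lower in every KO sample of this comparison than in every WT sample, and *Mbp* overlapped. Their sum was lower in KO, as given above, and their part in these values was not tested.

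Whether the genotype difference differed between PFC and STR was asked with an interaction term, for which 0.00624% of 16028 genes passed and 0 of the 7 members tested did, 0 at an unadjusted p under 0.05 and 0 of 10 in DESeq2. The greatest estimate was that of *Nodal* at -1.14 (SE 0.70, FDR 0.891), which rests on at most 19 reads per sample, and *Lefty1* was at -0.03 (SE 0.66). Without KO STR replicate 1 again no member passed.

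The genes most like *Lefty1* over the 22 samples, by Pearson's r of log2(CPM + 0.5) among 16008 genes with a mean of at least 1 CPM, were *Ppa1* (0.9891), *Asns* (0.9883), *Aldh2* (0.9878), *Slc7a7* (0.9873) and *Dpys* (0.9866). Those most like *Nodal* were *Rnf17* (0.992), *Gm14409* (0.9908), *Phf11d* (0.9904), *Gm9531* (0.99) and *Slc9b1* (0.9882). The 22 points hold 4 ESC samples and 18 others and share cell type and library, so these are descriptions over the series. None of the 5 genes like *Lefty1* was higher by the same margin in KO ESCs: *Ppa1* was 289.9 and 273.4 CPM in WT and 279.2 and 266.0 CPM in KO, and *Slc7a7* was 90.1 and 101.3 CPM in WT and 99.6 and 100.6 CPM in KO. Among the members, *Nodal* was closest to *Lefty1* (0.9857), followed by *Lefty2* (0.959), *Tdgf1* (0.9578) and *Foxh1* (0.9366), while *Acvr1b* was at -0.1451 and *Smad3* at -0.7861.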

How the data were processed

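RNA-seq counts from 22 mouse samples were used, grouped by the cell type or tissue, genotype and replicate number in their labels. Libraries were made with the Illumina TruSeq RNA kit. The deposited values are raw read counts per gene, 1 table per sample, made by the authors by aligning reads with STAR to mm10 and counting them with HTSeq on Ensembl genes, without normalization. The submitters' processing notes also name CASAVA 1.7. Aligner and counter versions are not given in the sources used here. The ESC and NPC tables are marked as counted without strand, and the strand setting of the brain tables is not given in the sources used here. Alignments that were not unique made up 43.17% to 45.53% in ESC, 33.23% to 34.32% in NPC, 8.01% to 8.61% in STR and 7.62% to 8.90% in PFC tables, and these rows, which name no gene, were left out of library sizes. They limit counts of genes with near copies. Of 39179 gene identifiers 37693 matched a symbol in GENCODE M21 (GRCm38), holding 99.709% of counts.

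Counts were scaled by TMM and tested with edgeR 4.0.16 in R 4.3.3 (filterByExpr, robust quasi-likelihood, Benjamini-Hochberg over all genes tested, FDR under 0.05), within each tissue without a block. Each contrast was also run with DESeq2 1.42.0, edgeR's likelihood ratio test, RLE scaling, no filter, a log2 fold change beyond 1, all 22 samples in one fit, the replicate number as a block, and each replicate left out. NPCs without replicate 2 of both genotypes was added after seeing the data. CPM and RPKM were computed here. The code was tested on simulated counts. Replicates of 1 group differed by more than counting noise (their chi-square over degrees of freedom was 1.89 to 40.5), so each sample counted once. Same-numbered NPC samples deviated together (r of 0.571, 0.707 and 0.525 for numbers 1, 2 and 3), so the numbers were taken as pairs there from the data. The fit without a block was kept, as the methods name none. Precision is limited by the number of samples: 2 or 3 per group.

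The members, the lists of other Nodal and Activin, mesendoderm and BMP genes and the cell type markers were chosen with earlier results of these data known. Named besides the members and *Phf8* are list genes past the threshold (at most the 6 smallest p-values a list, otherwise the 2 greatest absolute changes), genes on the outer sides of the *Lefty* pair, the 5 genes most correlated with *Lefty1* and with *Nodal*, and markers. *Inhba* and *Fst* in ESCs, *Pmepa1* in the replicate comparison, *Grem1*, *Inhba* and *Fstl3* in the NPC to ESC comparison and the genes named in the closing section were chosen after their values were seen. Promoter windows came from RefSeq (GRCm38.p6), of which 5 of 10 members had one, and transcripts from GENCODE M21. Some items near the *Lefty* pair are not reported here.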

Additional observations from a re-analysis of the deposited data

How the results depend on the processing

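No member passed the threshold in a KO to WT comparison outside ESCs under any of the alternatives run. The ESC ratios within a replicate number stayed inside their counting interval in 40 of 40 recomputations, *Tdgf1* in replicate 2 going from 0.992 to 1.01 under plain library size. Leaving out 1 ESC sample turned the sign of *Nodal* (-0.03 to 0.04), *Tdgf1* (-0.17 to 0.20), *Smad7* (-0.53 to 0.40), *Smad3* (-0.41 to 0.47) and *Acvr2b* (-0.06 to 0.19). In the other comparisons 22 of the members' recomputed log2 fold changes reversed, all of them in results that passed no test. In ESCs, genes called rose from 0 to 1 in the likelihood ratio test, 3 in DESeq2, 1 with all 22 samples in one fit and 513 with the replicate block, under which 2 other Nodal and Activin genes (*Inhbb* and *Skil*) and 2 BMP genes (*Bmp4* and *Id3*) passed. In ESCs same-numbered samples deviated together (r of 0.876). Both samples numbered 2 were above both numbered 1 for 25.5% of genes and below both for 39.6%. This rests on 2 pairs and the labels do not tie same-numbered samples, so nothing is read from the blocked ESC fit. The ESC ratios within a replicate number describe these samples and are no paired test. The block changed no member call in NPCs, and in STR and PFC, where r was between -0.0323 and 0.133, the numbers were not treated as pairs. In NPCs genes called were 2 without the filter, 2 in the likelihood ratio test, 3 with the replicate block, 3 in DESeq2, 2 with all 22 samples, 0 without replicate 2 of both genotypes (where *Acvr1b* was -0.03), and from 0 to 0 with any 1 replicate left out. In STR they were 27 without the filter, 94 in the likelihood ratio test, 8 with the block, 60 in DESeq2, 4 with all 22 samples and 0 to 2 with a replicate left out. In PFC the count of 98 became 379 without the filter, 388 in the likelihood ratio test, 182 in DESeq2, 1 with all 22 samples, 18 with a log2 fold change beyond 1, and 2 to 154 with a replicate left out: 2 without KO replicate 2 or KO replicate 3, 18 without WT replicate 2, 37 without KO replicate 1 and 154 without WT replicate 1. There 1 other Nodal and Activin gene (*Pcsk6*) passed without the filter and in the likelihood ratio test, and 1 BMP gene (*Bmp2*) without the filter. For WT NPCs against WT ESCs, 6 of 11 mesendoderm genes passed without the filter. In that list *Gata6*, *Mixl1* and *Sox17* had 0 reads in WT NPCs, so they could differ only through ESC reads. The block took *Smad2* to an FDR of 0.0508 and *Smad3* to 1.27 with an FDR of 0.0691. It matched ESC and NPC samples by number alone, which the labels do not tie between cell types. For WT PFC against WT STR, a log2 fold change beyond 1 left 1292 genes, 1 other Nodal and Activin gene and 2 BMP genes. With the block 1 member (*Smad2*, 0.28, FDR 0.0188) and 1 mesendoderm gene passed. With a replicate left out 0 to 1 members, 3 to 6 other Nodal and Activin genes and 4 to 7 BMP genes did. No share of all genes stands beside these counts, so nothing is read from them. In the interaction test 2 genes passed without the filter, 19 in DESeq2 and 1 to 3 with a replicate left out. Leaving out each replicate moved the KO to WT estimates in NPCs from -0.13 to 0.54 (*Smad7*), -0.08 to 0.44 (*Smad3*), -0.05 to 0.11 (*Acvr1b*) and -0.15 to 0.08 (*Acvr2b*). It moved *Lefty1* in STR from -0.86 to 0.06, the latter without WT replicate 2. In PFC it moved *Smad2* from -0.11 to 0.09, *Smad3* from -0.09 to 0.04 and *Acvr2b* from -0.40 to 0.11. The PFC to STR estimates ran from -0.22 to 0.69 (*Lefty1*), -0.06 to 0.11 (*Smad7*) and -0.25 to 0.27 (*Acvr2b*, 0.00 without the filter). The causes were not tested. With 2 samples per genotype, differences in ESCs were not detectable unless large. *Nodal*, *Tdgf1*, *Foxh1* and the *Lefty* genes had at most 29 reads per brain sample. Differences of those genes in the brain were not detectable at this depth unless large.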
